A study of Mus musculus with 8 samples.

Results

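The 10 mouse genes followed here act in antioxidant and detoxifying defence. They are 6 glutathione transferases of the alpha and mu classes (Gsta2, Gsta3, Gsta4, Gstm1, Gstm2 and Gstm3), the pi-class transferase Gstp1, the glutathione synthesis gene Gclc, the quinone reductase Nqo1 and the heme oxygenase Hmox1. They are measured by the 16 probe sets that the platform annotation gives to 1 of these symbols alone, out of 45037 probe sets without controls, and stand for 10 of the 18193 genes named singly there. A further probe set that names Gsta2 together with other genes was left out by that rule. The samples were 8 one-colour Affymetrix arrays of total RNA from cornea. In 4 of them (TGFB) the mice overexpress TGF-beta, and in the other 4 (wildtype) they are littermates without it. The labels give no isoform, promoter, driving tissue, strain, sex or age, and do not say that each array is a separate animal. A p-value below therefore reflects how far these arrays differ within a group, and that spread may be technical only.

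Glutathione transferases join glutathione to reactive lipids, quinones and foreign compounds so that cells can export them. Many of their genes, with Gclc, Nqo1 and Hmox1, are known targets of the transcription factor NRF2 (gene Nfe2l2). NRF2 is held down by KEAP1 and the ubiquitin ligase scaffold CUL3, and when released it binds antioxidant response elements together with small MAF proteins. BACH1 competes for the same elements and is best known for repressing Hmox1. The cornea faces light and air, and its epithelium is known for high levels of protective soluble enzymes. TGF-beta is known to lower Gclc expression in some cultured epithelial cells and fibroblasts.

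Promoter sequences are shown for 4 genes whose signals are described in detail further on, Gstm1, Gstm2 and Gstp1, whose lowest values fell on the same arrays, and Nqo1, whose TGFB values were low. Each is the 250 bases before a RefSeq start site (build GRCm38.p6), 5′ to 3′, with matches to the antioxidant response element core TGANNNNGC or the AP-1 site TGANTCA in capitals, on either strand.
Gstm1 (chr3:108017974-108018223, minus strand): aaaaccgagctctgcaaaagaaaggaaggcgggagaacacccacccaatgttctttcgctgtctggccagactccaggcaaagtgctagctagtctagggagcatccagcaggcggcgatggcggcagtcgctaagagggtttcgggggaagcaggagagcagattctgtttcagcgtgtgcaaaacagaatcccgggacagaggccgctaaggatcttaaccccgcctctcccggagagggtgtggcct
Gstm2 (chr3:107986421-107986670, minus strand): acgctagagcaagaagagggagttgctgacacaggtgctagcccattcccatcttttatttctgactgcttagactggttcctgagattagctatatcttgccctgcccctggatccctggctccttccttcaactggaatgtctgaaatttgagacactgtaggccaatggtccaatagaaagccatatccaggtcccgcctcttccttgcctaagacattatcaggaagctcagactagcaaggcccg
Gstp1 (chr19:4037913-4038162, minus strand): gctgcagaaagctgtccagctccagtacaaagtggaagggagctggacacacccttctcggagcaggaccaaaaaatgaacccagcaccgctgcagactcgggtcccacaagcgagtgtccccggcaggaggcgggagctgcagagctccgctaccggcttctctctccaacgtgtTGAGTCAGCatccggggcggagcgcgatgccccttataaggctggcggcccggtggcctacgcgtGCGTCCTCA
Nqo1 (chr8:107403206-107403455, minus strand): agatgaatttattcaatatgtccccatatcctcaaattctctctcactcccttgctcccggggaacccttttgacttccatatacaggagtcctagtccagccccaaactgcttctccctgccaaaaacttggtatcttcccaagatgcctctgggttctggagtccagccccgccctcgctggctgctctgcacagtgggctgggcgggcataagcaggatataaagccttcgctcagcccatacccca

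Of these 4 windows, the Gstp1 window alone held a capital run. Its match TGAGTCAGC begins 74 bases before the start site and holds both motifs, overlapping, and a second match to the antioxidant core, GCGTCCTCA on the other strand, begins 9 bases before it. RefSeq promoters were found for 7 of the 10 genes and not for Gsta4, Gclc and Hmox1. The antioxidant core also matched in the windows of Gsta3 and Gstm3, so in 3 of the 7 genes. Over all 32841 promoter windows of this length, 35.2% held that core and 6.75% the AP-1 letters. Gsta2, with the same lowest arrays as Gstm1, Gstm2 and Gstp1, has a window that is not shown and held neither motif. Bases further upstream were not searched, so a window without a match does not mean that the gene has no such site. The letters TATAAA stand 29 bases before the start site of Nqo1 and 30 bases before a second start site of Gstm1, whose window is not shown. On either strand they were in windows of 3 of the 7 genes, Gsta2 being the third, and in 12.4% of all windows. In the same gene table Gstm3, Gstm2 and Gstm1 are next to each other on chromosome 3, between Gstm6 and Gstm4. Gstp1 stands beside its close copy Gstp2 on chromosome 19. Such copies share sequence, and how well these probes part them is not given in the sources used here.

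In TGFB corneas the mean was lower than in wildtype corneas for 13 of the 16 probe sets and higher for 3, where 48.4% of all probe sets had a lower mean. Some genes have several of these probe sets, and by the brightest of each gene the mean was lower for 8 of 10. Signals of Gsta4, which clears the lipid peroxidation product hydroxynonenal, were lower on all 4 TGFB arrays than on any wildtype array. One probe set of Gclc, the catalytic subunit of the rate-limiting enzyme of glutathione synthesis, was higher on all 4 than on any wildtype array. Nqo1, which reduces quinones, was low on all TGFB arrays and overlapped the wildtype arrays at 1 value. Hmox1, which breaks down heme, was near the bottom of the scale in both groups.

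None of these differences passed the test. On log2(signal + 16), limma with Benjamini-Hochberg adjustment over all probe sets called 0 of the 16 members at adjusted p under 0.05, and 0 of 45037 probe sets in all (0%). The members' adjusted p lay between 0.837 and 0.993, where the smallest of any probe set was 0.822. At an unadjusted p under 0.05 stood 5 members, against 5.86% of all probe sets. Of the 5, 4 were lower in TGFB, as were 3.16% of all probe sets, and 1 was higher, as were 2.7%. Among these 5 were Gsta4, Nqo1 and Gclc, and the remaining pair both measure Gstm1. In a separate limma fit of the brightest probe set per gene, 3 of 10 members stood there, against 7.08% of all genes. The groups did not overlap for 2 members, against 3.28% of all probe sets, with 1 lower (1.81% of all) and 1 higher (1.47% of all). The median difference of the members was -0.43, beside 0.0090 over all probe sets. Without wildtype 4, the array with the most 3′-biased RNA, 9 members stood at an unadjusted p under 0.05, but so did 11.7% of all probe sets. Without TGFB 1, TGFB 2 and wildtype 2, which carry skin-type transcripts, 3 members did, against 4.63%.

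**Figure D1:**
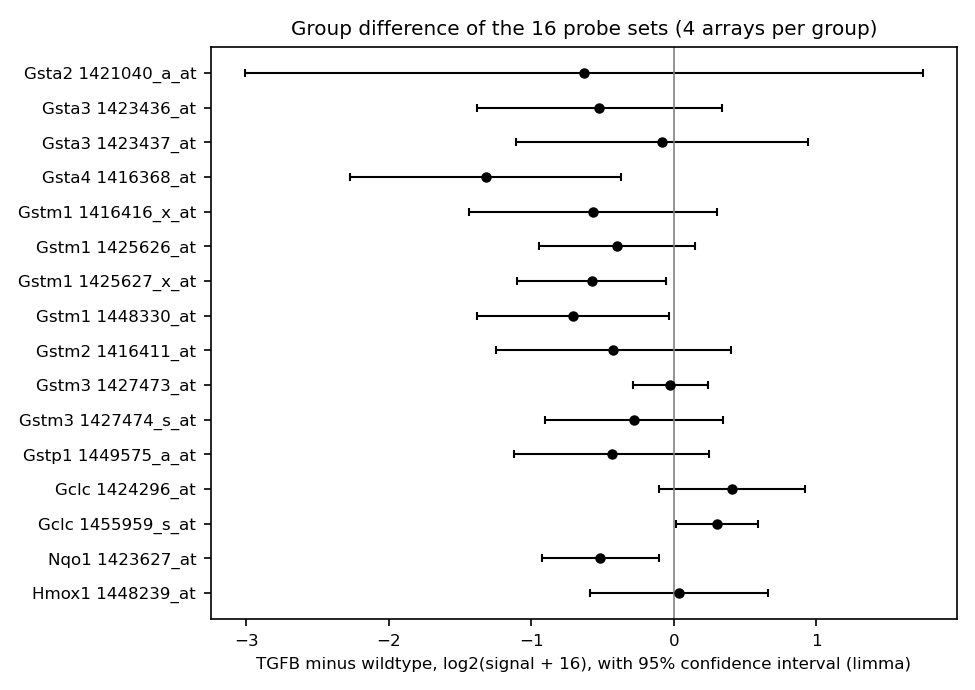
Difference between the groups for each of the 16 probe sets (TGFB minus wildtype, x axis, log2(signal + 16)), with points for the limma estimate and bars for its 95% confidence interval, from 4 arrays per group. The interval lies below 0 for Gsta4, Nqo1 and 2 Gstm1 probe sets and above 0 for 1 Gclc probe set, before any adjustment for the number of tests.

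The labelled tissue was present on every array, with other tissues beside it. Signals of Krt12, the keratin of corneal epithelium, ran from 289 to 4551 in TGFB against from 562 to 5766 in wildtype arrays, and those of Kera, a proteoglycan of the corneal stroma, from 2073 to 4154 and from 2538 to 8110. The mean of the 7 cornified epidermis markers was 12.22, 12.59 and 11.45 (log2 level) on TGFB 1, TGFB 2 and wildtype 2, against 6.24 to 7.20 on the other 5 arrays. The mean of 8 pigment cell markers was 7.60 to 9.28 in TGFB against 9.22 to 11.55 in wildtype arrays. All signals of these markers were above 0, but single cornified markers came close to it on some arrays. Flg gave 1.86 on wildtype 1 and Krt1 gave 2.93 on TGFB 3. On TGFB 1, TGFB 2 and wildtype 2 the lens mean (9 genes) was 4.64, 4.79 and 4.98, against 6.30 to 10.52 elsewhere. The corneal endothelium mean (6 genes) was 8.69, 8.90 and 9.165 there, against 9.21 to 10.29 on the other arrays. Wildtype 1 stood apart in markers of retina (7 genes, 7.01 against 4.94 to 5.85 on the other arrays) and skeletal muscle (8 genes, 10.47 against 7.93 to 9.09), and had the highest pigment mean, 11.55. The ratio of 3′ to 5′ Gapdh signal, which grows with RNA decay, was 6.41 on wildtype 4 and between 2.19 and 4.31 elsewhere. In whole corneas, fewer cells of a type and less RNA per cell cannot be told apart.

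With all 8 arrays weighted equally, Gsta4 had the largest difference among the members, whereas Gsta2 had a larger one with array weights, without TGFB 2, without wildtype 4 and without the 3 arrays high in cornified markers. Gsta4 signals were 763, 742, 2639.6 and 2421 on TGFB 1 to TGFB 4 and 3499.5, 3482, 3938 and 3046 on wildtype 1 to wildtype 4. The groups did not overlap, and the TGFB arrays split into a low pair (TGFB 1 and TGFB 2) and a pair nearer the lowest wildtype array (TGFB 3 and TGFB 4). The level was 10.45 ± 1.00 (SD, n = 4) in TGFB against 11.77 ± 0.15 (SD, n = 4) in wildtype arrays, a log2 difference of -1.32 with a 95% interval from -2.27 to -0.37 (limma adjusted p = 0.837). The absolute size was above that of 99.4% of all probe sets. The 2 low arrays are also the TGFB arrays with high cornified markers, though wildtype 2, with the same markers, had a Gsta4 signal of 3482. Without TGFB 1, TGFB 2 and wildtype 2 the difference was -0.46, and both remaining TGFB arrays were still below the remaining wildtype arrays. The lower pigment markers move with it as well. So does the mean of the keratocyte (stromal cell) markers, 10 genes. It was 9.77, 10.02, 10.16 and 10.43 on TGFB 1 to TGFB 4 against 10.42 to 10.78 in wildtype arrays. The corneal endothelium and lens means were also lowest on TGFB 1 and TGFB 2. So was the conjunctiva mean (7 genes), at 7.785 and 7.20 against 8.20 to 9.02 on the other arrays, with its highest value on wildtype 2. The retina mean was lowest there by a small margin (4.96 and 4.94, against 5.01 to 7.01). The part of these tissues in the result was not tested.

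Gsta3, an alpha-class transferase known for conjugating activated aflatoxin in mice, has a pair of probe sets that differed in the size of the group difference. The brighter one gave signals of 28.4, 36.0, 128 and 72.1 in TGFB against 149.7, 65.1, 68.1 and 94.3 in wildtype arrays. The other gave 17.7, 20.9, 113 and 83.1 in TGFB against 56.8, 34.1, 37.3 and 86.9 in wildtype arrays. On both, TGFB 1 and TGFB 2 were lowest and wildtype 2 came next, and the groups overlapped. These 3 arrays are those with cornified transcripts, and they were the lowest 3 for 3.22% of all probe sets. The log2 differences were -0.52 (SE 0.38, limma adjusted p = 0.912) and -0.082 (SE 0.46, adjusted p = 0.990). The second turned to 0.62 without those 3 arrays, and the first was then -0.035. The means of the lens and corneal endothelium markers were lowest on the same 3 arrays. The part of any of these tissues in the result was not tested.

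Gsta2, another alpha-class transferase, varied more than any other member. Its signals were 212, 485, 42.8 and 42.5 in TGFB arrays and 511, 306, 516 and 9.15 in wildtype arrays. The spread within each group was wider than the distance between the group means, and wildtype 4 alone was below all the TGFB arrays. The level was 7.14 ± 1.53 (SD, n = 4) against 7.77 ± 2.11 (SD, n = 4), a log2 difference of -0.63 whose 95% interval runs from -3.01 to 1.75 (limma adjusted p = 0.958). Without wildtype 4 the difference was -1.67, and without wildtype 3 it was -0.20.

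**Figure D2:**
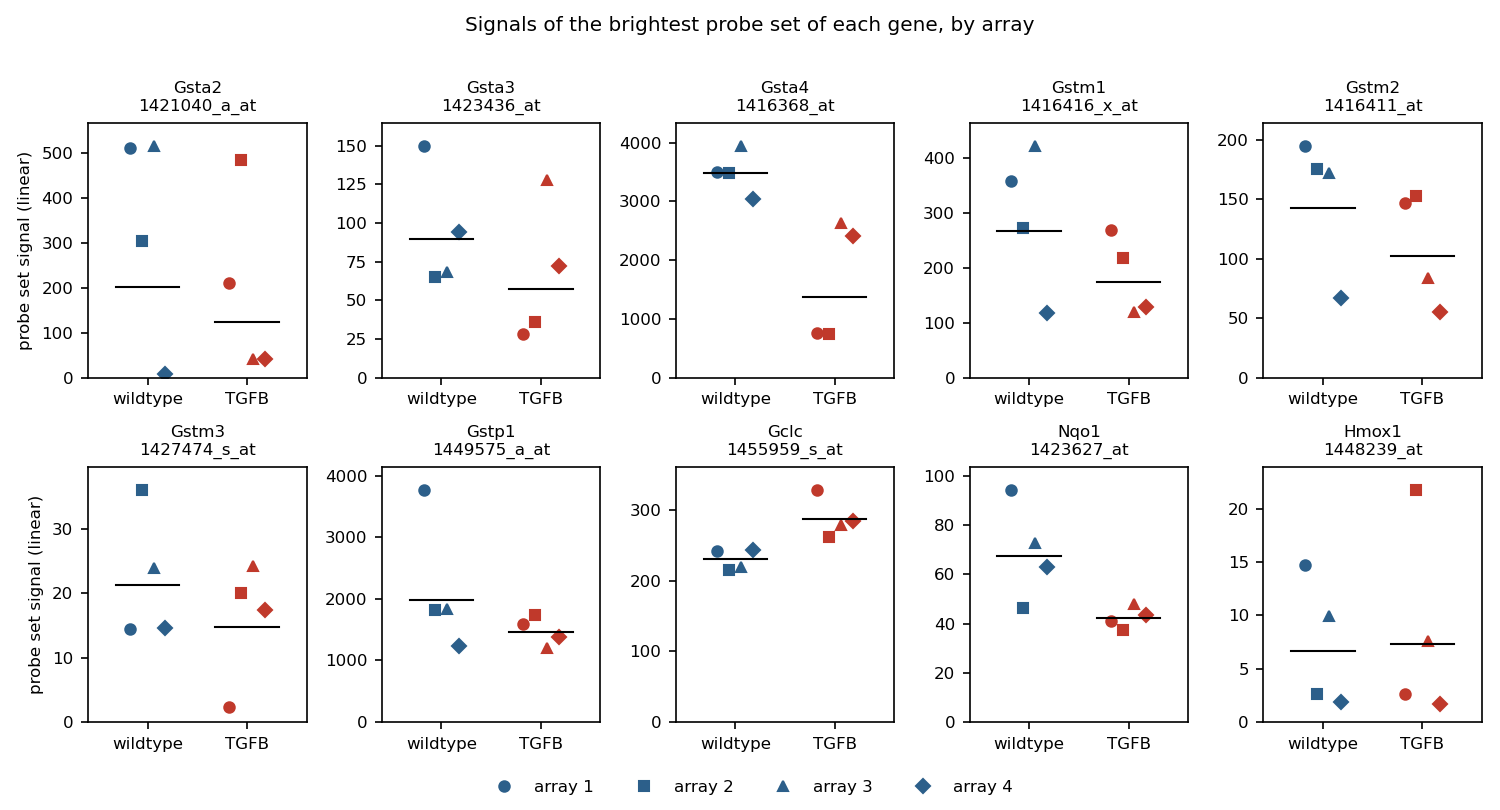
Linear signal (y axis) of the brightest probe set of each of the 10 genes in the 4 wildtype (blue) and 4 TGFB (red) arrays; marker shape gives the array number within a group and the black line is the group mean of log2(signal + 16) turned back to a signal. Gsta4 runs from 742 to 2639.6 in TGFB against from 3046 to 3938 in wildtype arrays, and Gclc from 262 to 328 and from 215 to 244.

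Among the mu-class transferases, Gstm1 was measured by 4 probe sets, and all 4 had a lower mean in TGFB corneas. The brightest gave signals of 269.9, 218, 120.3 and 129.8 in TGFB against 358, 274, 422 and 119 in wildtype arrays. The next gave 177, 146, 102 and 90.2 in TGFB against 263, 187, 331 and 126 in wildtype arrays. In both, wildtype 1, 2 and 3 were above every TGFB array and wildtype 4 was among the low ones, so the groups overlapped through wildtype 4 alone. The differences were -0.57 (SE 0.39, limma adjusted p = 0.906) for the first and -0.71 (SE 0.30, adjusted p = 0.840) for the second. Without wildtype 4 they were -0.92 and -0.94, with adjusted p of 0.308 and 0.279, where the other alternatives ran up to 1.00. Without wildtype 3 they were -0.36 and -0.51. The remaining pair of Gstm1 probe sets was dim, with signals from 6.55 to 42.6 and from 14.3 to 69.7 over the 8 arrays, and differences of -0.40 (SE 0.24) and -0.58 (SE 0.23). The first and the last of the 4 carry the suffix _x_at, by which the array's maker marks probes that can also bind other transcripts, as from the adjoining Gstm genes.

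Gstm2, next to Gstm1 in the genome, gave signals of 147, 153, 83.5 and 55.5 in TGFB against 195, 176, 173 and 67.0 in wildtype arrays. Here too wildtype 1, 2 and 3 were above every TGFB array and wildtype 4 was below 3 of them. The log2 difference was -0.42 (SE 0.37, limma adjusted p = 0.920). Leaving out single arrays gave from -0.74 (without wildtype 4) to -0.18 (without TGFB 4). For Gstm3, signals of 1 probe set stayed between 0.438 and 2.74 on every array, too low to read a difference. The other Gstm3 probe set, of the suffix _s_at for probes shared between transcripts, ran from 2.30 to 24.3 in TGFB against from 14.4 to 36.0 in wildtype arrays, with a difference of -0.28 (SE 0.28, adjusted p = 0.927). That was -0.031 without TGFB 1 and -0.12 without wildtype 2. Both were dim, and the offset of 16 shrinks differences at that level.

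Gstp1 was bright on all arrays. Its signals were 1584, 1739, 1206 and 1379 in TGFB against 3760.1, 1826, 1828 and 1239 in wildtype arrays. Wildtype 1 was far above the others, wildtype 2 and 3 were just above the highest TGFB array, and wildtype 4 lay inside the TGFB range. The log2 difference was -0.44 (SE 0.30, limma adjusted p = 0.907). It was -0.13 without wildtype 1, the array with the highest retina, pigment cell and skeletal muscle markers, and -0.66 without wildtype 4.

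The low values of several transferases fell on the same arrays. TGFB 3, TGFB 4 and wildtype 4 were the lowest 3 of the 8 arrays for 6 of the 16 probe sets, those of Gsta2, Gstm2, Gstp1 and 3 of the 4 of Gstm1. Over all probe sets 6.29% had the same lowest 3, and so had 9 of 90 genes of the pathway lists given further on. Nfe2l2 itself was one of them. It measured 337, 339.8, 163 and 152 in TGFB against 469, 367, 316 and 116 in wildtype arrays. This was seen in the values and is a description of these arrays, which cut across the groups. The means of the skeletal muscle markers (8 genes) were also lowest there, at 8.46, 7.93 and 8.11 against 8.65 to 10.47 (log2 level) on the other arrays. Those of the smooth muscle markers (5 genes) were 6.91, 6.85 and 6.58, against 6.95 to 8.84. The corneal epithelial mean (10 genes) was 9.98, 9.97 and 9.16 there, against 9.43 to 10.38. Its genes did not move together. Krt15 was lowest on the same 3 arrays, with signals of 2594, 1908 and 1773 against 4521.5 to 8675 elsewhere. Krt12 gave 4161, 4551 and 562 there, against 289 to 5766 elsewhere. The part of these tissues in the result was not tested.

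**Figure D3:**
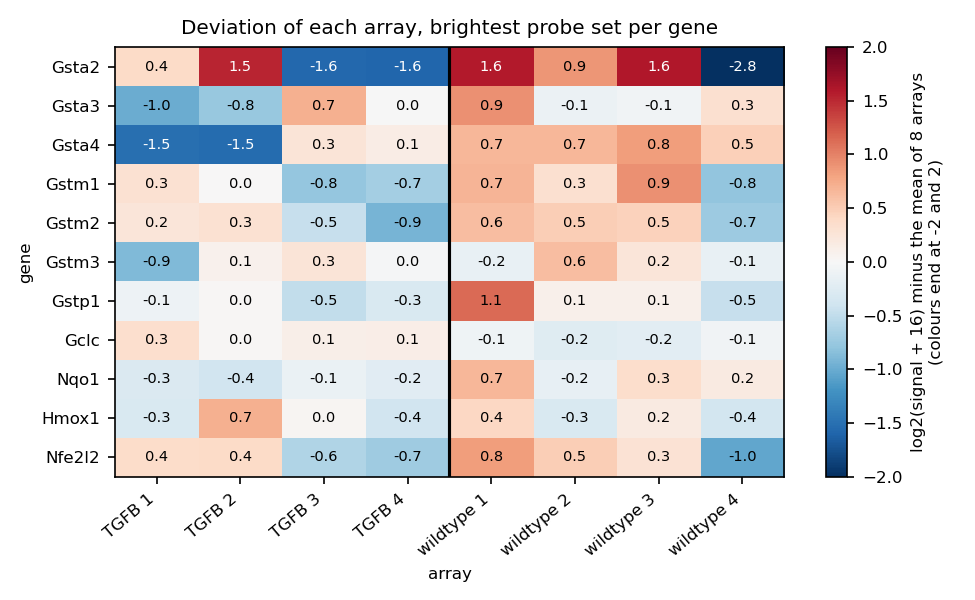
Each cell gives log2(signal + 16) of a gene (rows, brightest probe set) on an array (columns) minus its mean over the 8 arrays, with Nfe2l2 added below the 10 genes; red is above and blue below the mean, and the line parts TGFB from wildtype arrays. Gsta2, Gstm1, Gstm2, Gstp1 and Nfe2l2 are lowest on TGFB 3, TGFB 4 and wildtype 4, while Gsta3, Gsta4 and Nqo1 are lowest on TGFB 1 and TGFB 2.

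Gclc stood apart in direction from the member transferases, whose probe sets all had lower means in TGFB corneas. The brighter of its probe sets gave signals of 328, 262, 279 and 285 in TGFB against 242, 215, 219.8 and 244 in wildtype arrays. Every TGFB array was above every wildtype array, with a small gap and a narrow spread. This probe set carries the suffix _s_at, for probes shared between transcripts. The level was 8.25 ± 0.13 (SD, n = 4) against 7.94 ± 0.09 (SD, n = 4), a log2 difference of 0.30 with a 95% interval from 0.016 to 0.59 (limma adjusted p = 0.840). The second probe set gave 228.5, 127, 193 and 200.1 in TGFB against 98.8, 113, 173 and 167 in wildtype arrays. There TGFB 2 fell among the wildtype values, and the difference was 0.40 (SE 0.23, adjusted p = 0.888). In every setting tried the difference was above 0 for both, from 0.24 to 0.35 for the first and from 0.27 to 0.56 for the second. Gclm, which encodes the modifier subunit of the same enzyme, had a difference of -0.019 (SE 0.21, adjusted p = 0.994), with signals of 116 to 193 in TGFB against 125 to 193 in wildtype arrays.

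Nqo1 gave signals of 41.1, 37.5, 47.9 and 43.3 in TGFB against 94.2, 46.6, 72.8 and 63.0 in wildtype arrays. The TGFB values lay close together, and wildtype 2 alone of the wildtype arrays fell within their range. TGFB 1 and TGFB 2 were the lowest arrays, as for Gsta4 and both Gsta3 probe sets. That makes 4 of the 16 probe sets, where 6.51% of all probe sets had the same lowest 2. The level was 5.87 ± 0.11 (SD, n = 4) against 6.38 ± 0.34 (SD, n = 4), a log2 difference of -0.52 with a 95% interval from -0.93 to -0.11 (limma adjusted p = 0.837). Leaving out TGFB 1, TGFB 2 and wildtype 2 gave -0.58, and leaving out single arrays gave -0.65 to -0.38. Aldh3a1, a corneal crystallin that responds to the dioxin receptor AHR in other tissues, as Nqo1 does, had TGFB signals of 52.5 to 128 and wildtype signals of 4060.1, 167, 315 and 70.5. The difference of Aldh3a1 was -2.05 (SE 1.00, adjusted p = 0.867), and -0.91 without wildtype 1. Both genes were highest on wildtype 1, the array with the highest retina, pigment cell and skeletal muscle markers, whose part in the result was not tested.

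Hmox1 gave signals of 2.59, 21.7, 7.63 and 1.71 in TGFB against 14.8, 2.59, 9.99 and 1.86 in wildtype arrays. Only TGFB 2 was above 16, the offset used for the log2 scale, and the groups overlapped throughout. The log2 difference was 0.036, with a 95% interval from -0.59 to 0.66 (adjusted p = 0.993, limma). The constitutive heme oxygenase Hmox2 gave 492 to 852 in TGFB against 526 to 784 in wildtype arrays, a difference of -0.17 (SE 0.20, adjusted p = 0.938) that ran from -0.32 without TGFB 2 to -0.065 without TGFB 3.

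The rest of the pathway was taken from 6 lists with 98 genes, of which 90 were measured, each by its brightest probe set. Limma called 0 of the 90. At an unadjusted p under 0.05 stood 5 higher and 8 lower genes, 14.4% of the 90, against 5.86% of all probe sets in the same fit. In a separate fit of the brightest probe set of each gene, that share was 7.08% of all genes. Other glutathione transferases had lower means in 11 of 16 genes, with a median difference of -0.18 that was -0.10 without wildtype 1 and -0.28 without the 3 cornified arrays. The theta-class gene Gstt2 had a difference of -0.79 (SE 0.30) and the membrane-bound Mgst1 one of -0.53 (SE 0.20), which were -0.51 without wildtype 1 and -0.32 without the 3 cornified arrays. Mgst1 had signals of 970.4 to 1834 in TGFB against 1773 to 2382 in wildtype arrays. Gstcd had 0.29 (SE 0.14) and its groups did not overlap. Genes of glutathione synthesis, supply and recycling had higher means in 12 of 18, with a median of 0.13 that was 0.055 without wildtype 4, 0.075 without TGFB 2 and 0.087 without wildtype 3. Gsr, the reductase that restores glutathione, gave 67.8 to 98.5 in TGFB against 24.4 to 56.8 in wildtype arrays, with a difference of 0.69 (SE 0.20, limma adjusted p = 0.834) and no overlap. The glutaredoxin Glrx gave 1048, 1714, 256 and 333 in TGFB against 255, 498, 146 and 340 in wildtype arrays, a difference of 1.11 (SE 0.60). It was highest on TGFB 1, TGFB 2 and wildtype 2, the arrays with cornified transcripts, and the difference was 0.30 without them. The cystine carrier Slc7a11, which was dim, had -0.32 (SE 0.18), and -0.15 without TGFB 1.

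Other NRF2 target genes went both ways, with 11 of 21 higher, 10 lower and a median of 0.00077. Transketolase Tkt, an enzyme of the pentose phosphate pathway, is abundant in corneal epithelium. Its probe set, of the suffix _x_at, gave 1889.9 to 2531.5 in TGFB against 2554 to 5914 in wildtype arrays. The difference of Tkt was -0.93 (SE 0.26, limma adjusted p = 0.834). The Nqo1 relative Nqo2 gave 71.4 to 99.6 and 105 to 140.2, a difference of -0.43 (SE 0.15, adjusted p = 0.837), and the export pump Abcc4 had -0.76 (SE 0.26). Abcc4 had -0.40 without the 3 cornified arrays. Of the 90 genes, 2 (Tkt and Nqo2) were lower on every TGFB array than on any wildtype array and 3 (Gsr, Gstcd and Cul3) were higher on every one, where 1.81% and 1.47% of all probe sets were.

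The list of NRF2 pathway regulators mixes NRF2 itself with binding partners, repressors, related factors and AP-1 genes, so its count has no single meaning. Of its 14 genes, 13 had higher means in TGFB corneas, with a median of 0.25, where 48.4% of all probe sets had a lower mean. Leaving out wildtype 4 left 10 of 14 with higher means. The median was 0.13 when the probe sets of each gene were averaged, 0.15 with the 40th percentile filter, 0.16 without TGFB 1 and 0.36 without TGFB 2. Cul3, the scaffold of the ligase that marks NRF2 for breakdown, gave 895.5 to 1045 in TGFB against 655 to 763 in wildtype arrays without overlap, a difference of 0.48 (SE 0.12, limma adjusted p = 0.822). The AP-1 subunit Fos had 0.78 (SE 0.23) and the small MAF gene Maff 0.39 (SE 0.18), the latter 0.70 without the 3 cornified arrays. Keap1 had 0.14 (SE 0.20) and Bach1 0.15 (SE 0.16), with limma adjusted p of 0.949 and 0.927. Without wildtype 4 Keap1 had -0.013, and without TGFB 3 Bach1 had 0.076. Nfe2l2 was the single gene of this list with a lower mean (-0.28, SE 0.42, adjusted p = 0.952), and ran from -0.67 without wildtype 4 to -0.047 without wildtype 1.

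Heme and iron genes split into 7 of 13 higher and 6 lower, with a median of 0.012. The sign of the medians of this list, of the other NRF2 targets and of the AHR list turned with the setting. The haptoglobin-hemoglobin receptor Cd163, a macrophage gene, had a difference of -1.15 (SE 0.37), the biliverdin reductase Blvrb -0.57 (SE 0.20) and haptoglobin Hp 0.86 (SE 0.32). Without wildtype 1, Cd163 had -0.80 and Hp 0.59, and without TGFB 3, Blvrb had -0.46. Hp was dim, with signals of 20.5 to 57.6 in TGFB against 0.976 to 26.3 in wildtype arrays. The 8 macrophage markers, Cd163 among them, had means of 7.53 to 8.01 (log2 level) in TGFB against 7.83 to 8.76 in wildtype arrays, and their part in the Cd163 value was not tested. Genes of the AHR pathway had higher means in 4 of 8 and a median of -0.064, and beside Aldh3a1 the cytochrome Cyp1b1 had -0.64 (SE 0.32; -0.37 without wildtype 1) and Cyp1a1, dim in both groups, -0.28 (SE 0.23; -0.12 without wildtype 4).

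**Figure D4:**
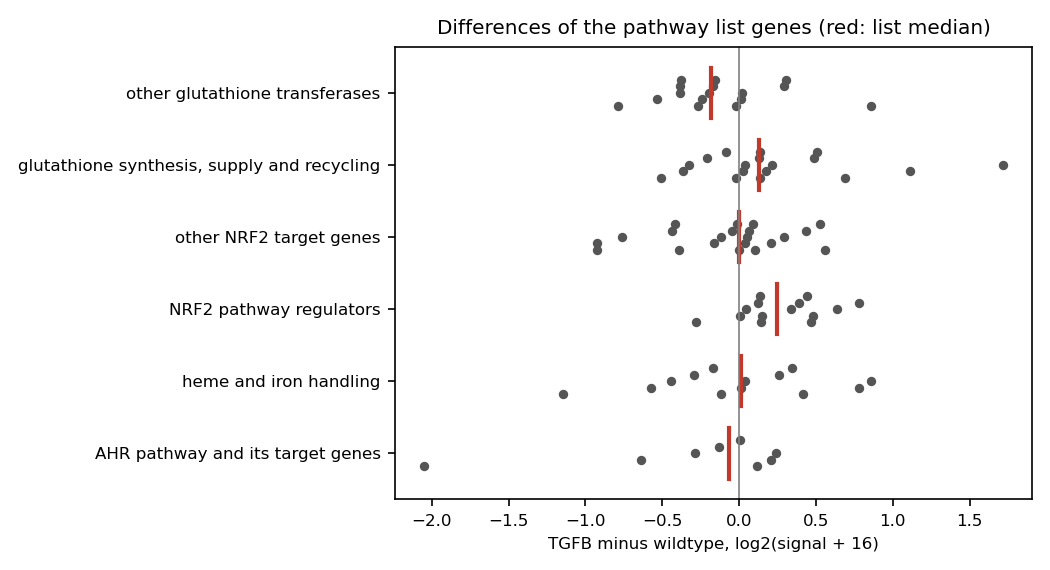
Difference of each pathway gene (grey points, TGFB minus wildtype, log2(signal + 16), x axis) by list (y axis), with the list median as a red line. The medians are -0.18 for other glutathione transferases, 0.13 for glutathione synthesis, supply and recycling, 0.00077 for other NRF2 targets, 0.25 for NRF2 pathway regulators, 0.012 for heme and iron genes and -0.064 for the AHR pathway.

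Genes with the most similar profile were sought for the 6 members whose log2 level varied by an SD of at least 0.5 over the 8 arrays, among 18183 other genes. Likeness was the root mean square difference between the 2 centred log2 profiles, where 0 is identical. Gsta4 was closest to the pigment granule gene Pmel (0.30) and the neuronal membrane protein gene Gpm6a (0.31). Pmel gave 1088, 2089, 5094 and 5492 in TGFB against 6631, 5185, 7151 and 5009 in wildtype arrays, so it shared with Gsta4 the low values on TGFB 1 and TGFB 2. Gsta2 was closest to the BMP and WNT antagonist Sostdc1 (0.45) and to Tenm2 (0.62), and Gsta3 to Stox1 (0.18) and Prune2 (0.19). Gstm2 was closest to the DNA methyltransferase Dnmt3a (0.14) and the electron transfer flavoprotein Etfb (0.15). Gstp1 was closest to Gask1b (0.11) and argininosuccinate lyase Asl (0.15), and Gstm1 to the dim genes Dnah8 and Tnfrsf14 (both 0.19). These are the closest of that many genes over 8 arrays, given as a description.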

How the data were processed

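RNA of mouse corneas was measured on 8 arrays, per the labels 4 TGFB and 4 wildtype. The values the authors deposited are linear intensities per probe set, and how they were computed and scaled is not stated in the labels. Every array has a 2% trimmed mean of 150, so the arrays were not normalized again, and log2(signal + 16) was used, which shrinks differences of dim genes. Without the 64 controls, 45037 probe sets were tested by limma 3.58.1 under R 4.3.3 (lmFit and eBayes, no trend, Benjamini-Hochberg adjustment), a step checked on simulated data. A platform annotation of 2016 names 34945 of them by 1 symbol, 932 by several, and leaves 9160 unnamed here; all 16 member symbols equal the RefSeq symbol of the same Entrez ID. Array numbers follow the order of the records and pair nothing. The number of arrays limits the precision. Genes named are the members, the 3 with the smallest p in each list, Gclm, Nfe2l2, Keap1, Bach1, Hmox2 and Aldh3a1 whatever their values, tissue markers and the closest profiles. The members and lists were chosen with earlier results of these data known. Alternatives were other offsets (1 and 32), quantile normalization or median centring, only probe sets above the 40th percentile of mean level, 1 value per gene (its brightest probe set or the mean), a variance trend, robust eBayes, array weights, and leaving out single arrays. Leaving out TGFB 1, TGFB 2 and wildtype 2 together, and leaving out arrays for single pathway genes, were added after the data were seen.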

Additional observations from a re-analysis of the deposited data

Results flagged for a closer look

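Of the 32 groups of 4 values (16 probe sets in both groups), 3 hold an array far from the other 3, by Dixon's criterion at 95%, which chance meets in about 1 of 20 groups. Gsta2 on wildtype 4 had a signal of 9.15, where the other wildtype arrays had 306 to 516. Gstm2 on wildtype 4 had 67.0, where the others had 173 to 195. The dimmer Gstm3 probe set had 2.74 on wildtype 3, where the others had 0.438 to 0.733, all close to 0. Wildtype 4 is also the array with the highest 3′ to 5′ Gapdh ratio (6.41), whose part in these values was not tested.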

How the results depend on the processing

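Under 19 alternatives no member and no pathway gene passed an adjusted p of 0.05, and the members' smallest adjusted p in any was 0.279, without wildtype 4. In that setting limma called 2 of all probe sets, neither a member, where all other alternatives called 0. Of 289 values for single members, 277 kept their sign and 12 turned. With array weights the second Gsta3 probe set gave 0.19 and Hmox1 -0.0027. Without TGFB 1, TGFB 2 and wildtype 2 that Gsta3 probe set gave 0.62, the brighter Gstm3 probe set 0.14 and Hmox1 -0.25. Leaving out single arrays, the second Gsta3 probe set ran from -0.43 to 0.22, Hmox1 from -0.20 to 0.18 and the dimmer Gstm3 probe set from -0.046 to 0.017. The cause of these turns was not tested; the Gstm3 and Hmox1 signals were near the bottom of the scale. The filter at the 40th percentile kept 13 of the 16 members. No paired analysis was possible because the labels give the groups no shared replicate numbers.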
